A study of Mus musculus with 21 samples.

Results

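Methimazole alone was compared with no drug in the mouse thyroid at 4 weeks, across all genes, from 6 of the 21 RNA sequencing libraries of the series. Both groups were C57BL/6J mice that had received the pLIVE-Empty vector, a plasmid backbone made for expression in the liver that carries no hormone here, so the control animals had been injected as well. The group called Empty had the vector only (n = 3 libraries), and the group called Empty-MMI had the vector and thiamazole, the other name of methimazole (MMI, n = 3 libraries). The labels put the same tag of hyperthyroidism induction on every group of the series, whereas the design text ties hyperthyroidism to the TSH vectors, which neither of these groups received. Age, sex, drug dose and the length of treatment are not stated in those sources. Whether the libraries stem from different animals is not stated in the labels, and the p-values below then measure the spread between these samples, which may be technical. RNA was read as poly(A) libraries from the whole gland, with 38984184 to 48884757 counts per library over 45777 genes. The comparison asked what the drug changed in the gland without forced TSH.

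Methimazole blocks the binding of iodine to thyroglobulin and so lowers the synthesis of thyroid hormone. A fall of circulating hormone is known to raise the secretion of thyrotropin (TSH) from the pituitary, and TSH acts through its receptor and cyclic AMP on follicular cells, where it raises iodide uptake and hormone synthesis and makes the gland grow. Hormone levels in blood and gland weights were not analysed here. In the mouse, the gland lies on the trachea beneath the strap muscles of the neck, with the parathyroid glands at its surface, so neighbouring tissue can come along in dissection.

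The content of skeletal muscle separated the groups, and it is given first because it moves with many of the lower genes below. Of all counts, 1.95%, 0.603% and 1.23% fell on the 35 genes of a skeletal muscle list in Empty replicates 1 to 3, against 0.0280%, 0.0657% and 0.0196% in Empty-MMI. The groups did not overlap, and the lowest Empty library stood above the highest Empty-MMI library. Acta1, the actin of skeletal muscle fibres, was at 3968, 748 and 1725 CPM (TMM-normalised read counts scaled to library size) in Empty and at 12.7, 35.5 and 7.87 in Empty-MMI. Ckm, muscle creatine kinase, was at 2114, 478 and 932 CPM in Empty and at 11.1, 36.9 and 3.85 in Empty-MMI. Over the 15 other libraries of the series the share ran from 0.00902% to 0.657%, so Empty replicates 1 and 3 of 4 weeks held more muscle transcript than any of those 15. In bulk tissue, fewer cells of a type and less RNA per cell cannot be told apart.

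**Figure D1:**
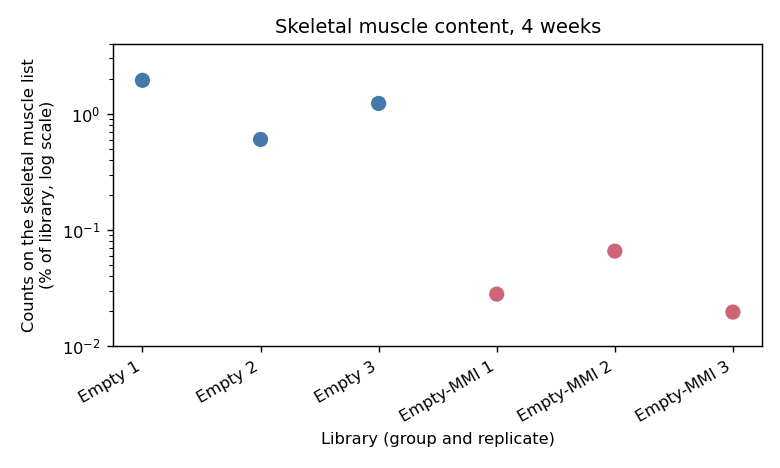
The share of each library's counts that fell on the 35 skeletal muscle genes is plotted on a log axis, 1 point per library, with Empty in blue and Empty-MMI in red. The 3 Empty libraries sit between 0.603% and 1.95% and the 3 Empty-MMI libraries between 0.0196% and 0.0657%.

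Other checks of the tissue were closer between the groups. Thyroglobulin (Tg, on chromosome 15, 66670754 to 66850721 of GRCm38), the defining product of follicular cells, took 17.2%, 22.7% and 26.0% of counts in Empty and 24.4%, 27.1% and 20.9% in Empty-MMI. Tshb and Cga, the subunits of TSH, had 0 counts in the 6 libraries, which allows up to 3 counts each. The mean log2 CPM of 9 parathyroid genes was 3.38 in Empty replicate 3 and between 6.62 and 7.78 in the other 5 libraries, and Pth, parathyroid hormone, was at 3946, 6095 and 52.5 CPM in Empty and 2315, 4380 and 5314 CPM in Empty-MMI.

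Across the genome 285 of 17355 tested genes changed (1.64% called, edgeR's quasi-likelihood test, adjusted p under 0.05), of which 99 rose (0.57% of tested genes) and 186 fell (1.07%) in Empty-MMI. At an unadjusted p under 0.05 there were 2614 (15.1%), the share against which unadjusted counts of the lists below are to be read. To keep muscle apart, a gene was called muscle-linked where, in the 15 libraries outside the comparison, its log2 CPM followed the muscle score within groups (r of at least 0.7 and a slope of at least 0.1), the score being the average log2 CPM over the 35 skeletal muscle genes. Of 300 tested genes of the muscle lists or linked to them 72 fell (24%) and 0 rose, and the 72 comprised 3 members of the lists and 69 linked genes. Of the remaining 17055 genes 99 rose (0.58%) and 114 fell (0.668%), with 32 of the higher and 62 of the lower at least 2-fold apart, and their median log2 fold change (log2FC) was -0.00014. The 3 members of the skeletal muscle list that passed were Mybpc2, a myosin-binding protein of fast fibres (log2FC -3.89, SE 0.51, edgeR adjusted p = 0.0167), and Myod1 and Myf6, transcription factors of muscle cells (adjusted p = 0.0389 and 0.0497 in edgeR). Myod1 had 159 counts over the Empty libraries and 0 over the Empty-MMI libraries. Acta1 (log2FC -6.84, SE 2.25, edgeR adjusted p = 0.199) and Ckm (log2FC -6.08, SE 2.23, edgeR adjusted p = 0.247), which varied widely within each group, did not pass, whereas DESeq2 called both (adjusted p = 0.00127 and 0.0196) and 21 of the 35 genes of the list. Even so, 33 of 34 tested members of the list had no overlap between the groups, as had 18.5% of all tested genes.

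**Figure D2:**
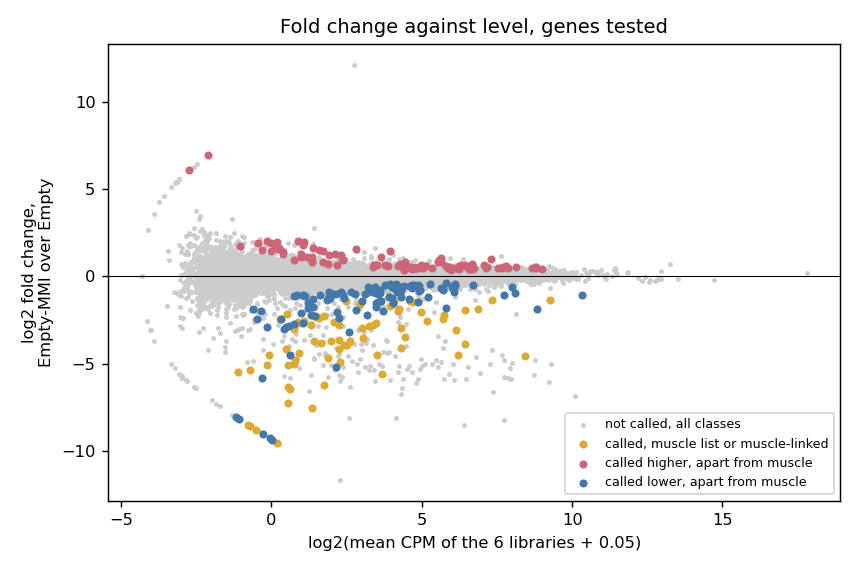
Each point is 1 of 17355 tested genes, with the log2 of its mean CPM over the 6 libraries plus 0.05 on the x axis and the fitted log2 fold change, Empty-MMI over Empty, on the y axis. The 72 called genes of the muscle lists or linked to them all lie below 0, beside 114 other lower and 99 higher genes, and the curved lines at low level are genes with 0 counts in 1 group, whose fitted values depend on the prior count.

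Many of the 114 other lower genes had a large gap expected from muscle content on a linear scale. A second rule, added after the data were seen, took the slope of a gene's CPM on the muscle percentage in the same 15 libraries, multiplied it by the gap of 1.22 percentage points between the groups, and compared the product with the observed gap. This reaches beyond the muscle contents from which the slope was taken. The rule set no minimum on how closely a gene followed muscle. The share of all tested genes that meet it was not taken, and what muscle contributed to each gap was not tested. The expected gap was at least 50% of the observed one in 71 of the 72 muscle genes (median 110%) and in 73 of the 114 others (median 78.4%). Among the 99 higher genes it was so in 21, all through negative slopes, and the median was -29.6%, meaning that the slope mostly pointed the other way. With these set apart, 78 higher and 41 lower genes remained, 119 in all. With the muscle score or the muscle percentage as a covariate in the fit edgeR called 0 genes. Every Empty library is high in muscle and every Empty-MMI library low, so drug and muscle content cannot be told apart within these 6 libraries. The count of 285 also rested on single libraries: it was 20 without Empty-MMI replicate 1, 115 without Empty-MMI replicate 2, 29 without Empty-MMI replicate 3 and 117 without Empty replicate 1.

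**Figure D3:**
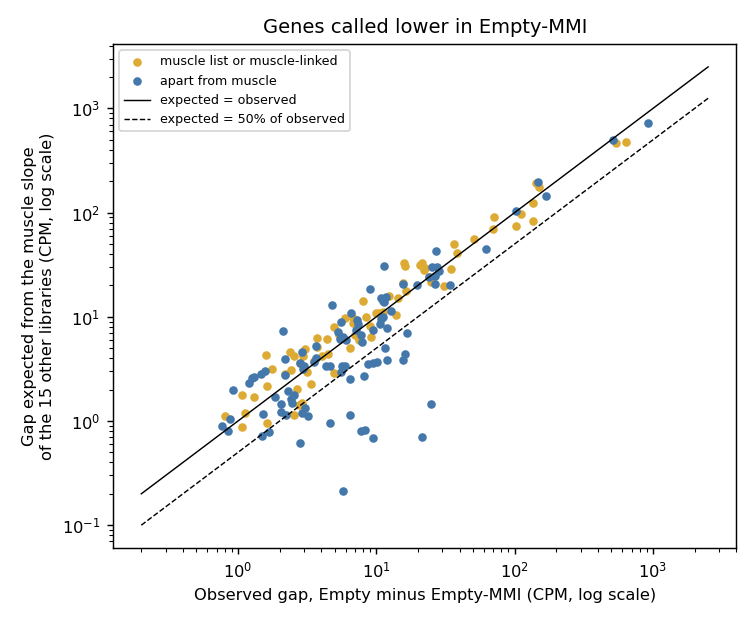
For the genes called lower in Empty-MMI, the observed gap between group means (x axis, CPM, log scale) is set against the gap expected from their slope on muscle content in the 15 other libraries (y axis, CPM, log scale). Of the lower genes 169 are drawn and 17 with an expected gap at or below 0 cannot be. The blue points under the dashed line are genes whose expected gap was less than 50% of the observed one.

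Of the 38 gene lists described, the one for mitosis held the most higher genes. Of 34 tested members of a mitosis list 13 rose and 0 fell, against 0.57% of all genes rising, and the median log2FC of the list was 1.13, with all 34 above 0. The mean log2 CPM of the list was -0.32, -0.13 and -0.41 in Empty and 0.70, 0.58 and 1.28 in Empty-MMI, so the groups did not overlap. The 13 genes were Iqgap3, Prc1, Mki67, Cenpf, Top2a, Kif20a, Ccna2, Birc5, Plk1, Bub1b, Anln, Kif11 and Hmmr, with log2FC from 0.80 to 2.02.

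Promoters of 3 of these genes are shown because many mitotic genes are known to share a pair of promoter elements, the cell cycle genes homology region (CHR, TTTGAA) and the CCAAT box, through which their transcription is held down in resting cells and raised in dividing ones. The 3 shown hold both elements. Iqgap3, which had the smallest p of the list, held TTTGAA on the opposite strand but no CCAAT, and is not shown. Each run covers 150 bases before to 20 bases after the RefSeq start on GRCm38.p6, with both elements in capitals: for Prc1 chr7:80294301-80294470 on the plus strand, for Mki67 chr7:135716360-135716529 on the minus strand and for Cenpf chr1:189688067-189688236 on the minus strand.
Prc1: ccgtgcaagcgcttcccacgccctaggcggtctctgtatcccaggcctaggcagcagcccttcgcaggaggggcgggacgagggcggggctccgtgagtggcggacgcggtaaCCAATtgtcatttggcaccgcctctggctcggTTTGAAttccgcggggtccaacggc
Mki67: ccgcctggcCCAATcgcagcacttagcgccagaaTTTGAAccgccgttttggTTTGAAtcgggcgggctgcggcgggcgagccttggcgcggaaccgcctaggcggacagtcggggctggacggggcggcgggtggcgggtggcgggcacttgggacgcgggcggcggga
Cenpf: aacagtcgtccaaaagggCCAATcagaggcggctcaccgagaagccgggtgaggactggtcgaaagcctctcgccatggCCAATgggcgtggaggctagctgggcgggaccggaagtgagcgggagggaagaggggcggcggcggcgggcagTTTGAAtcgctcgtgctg
In windows of 300 bases (250 before to 50 after the start, both strands), TTTGAA was found at 25 of 30 mitosis genes with a RefSeq promoter (83.3%) and at 20.2% of 27025 genes, CCAAT at 22 of 30 (73.3%) and at 41.1% of all, and both at 19 of 30 (63.3%) and at 7.97% of all. Of the 11 genes among the 13 that had a RefSeq promoter, 10 held TTTGAA and 8 held CCAAT. The elements belong to the list, which was chosen for its function, and say nothing on which factor acted here.

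Iqgap3, a scaffold protein of dividing cells (chromosome 3, 88082002 to 88121048), had the smallest p of the list. It was at 1.46, 1.27 and 1.04 CPM in Empty and at 4.06, 3.35 and 4.17 CPM in Empty-MMI, and rose 3.05-fold (log2FC 1.61, SE 0.17, edgeR adjusted p = 0.00139). Prc1, which bundles the microtubules of the central spindle (chromosome 7, 80294445 to 80316259), was at 1.52, 1.58 and 1.39 CPM in Empty and 3.84, 3.37 and 5.85 CPM in Empty-MMI, a 2.90-fold rise (log2FC 1.54, SE 0.21, edgeR adjusted p = 0.00704). Mki67, the Ki-67 protein used as a marker of cycling cells (chromosome 7, 135689784 to 135716450), was at 2.60, 4.06 and 4.05 CPM in Empty and 9.68, 8.73 and 13.1 CPM in Empty-MMI, 2.95-fold higher (log2FC 1.56, SE 0.22, edgeR adjusted p = 0.00782). For each of these genes, which were called on the same libraries, the lowest Empty-MMI library lay above the highest Empty library.

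Cenpf, a kinetochore protein (chromosome 1, 189640606 to 189688107), showed the widest change of the list, from 1.02, 0.594 and 0.497 CPM in Empty to 2.61, 2.23 and 3.83 CPM in Empty-MMI (log2FC 2.02, SE 0.31, edgeR adjusted p = 0.0104). These are low levels: Cenpf had 99 counts over the 3 Empty libraries and 362 over the 3 Empty-MMI libraries. Plk1, a kinase that drives entry into mitosis, was at 0.244, 0.389 and 0.546 CPM in Empty and 1.32, 1.06 and 2.07 CPM in Empty-MMI (log2FC 1.92, SE 0.37, edgeR adjusted p = 0.0242). Top2a, which untangles DNA before division, was at 2.34, 2.81 and 2.46 CPM in Empty and 5.46, 5.13 and 7.73 CPM in Empty-MMI (log2FC 1.27, SE 0.22, edgeR adjusted p = 0.0171). The other 7, among them the spindle kinesins Kif20a and Kif11, cyclin A2 (Ccna2), survivin (Birc5) and the checkpoint kinase Bub1b, had log2FC between 0.80 and 1.62. None of the 13 had an overlap between the groups, but they were called on these same libraries, so this is no separate support. Of all 34 tested members of the list 26 had no overlap, against 18.5% of all tested genes. Empty-MMI replicate 3 was the highest library for each of the 13 except Bub1b, as it was for the score of the list.

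These differences were also set against muscle content. In the fit with the muscle score as a covariate the log2FC of the 13 genes ran from 0.87 to 2.34, and with the muscle percentage from 0.62 for Kif11 to 2.87 for Cenpf. None passed in either fit, and for 9 of the 13 the gap expected from muscle was under 50% of the observed gap. For the other 4, Plk1, Hmmr, Bub1b and Kif20a, it was 131%, 125%, 109% and 100% of the observed gap. These 4 values rest on negative slopes, and the genes are outside the 78 higher genes kept apart from muscle. Iqgap3, Prc1, Mki67 and Cenpf kept a call without each of the 6 libraries in turn. The number of the 13 that passed was 4 without Empty-MMI replicate 1, 4 without Empty-MMI replicate 3 and 7 without Empty replicate 1. Of 30 tested genes of DNA replication and the G1/S step 1 rose and 0 fell, against 0.57% of all genes rising, with a median log2FC of 0.24. The 1 gene was Ccnd1, cyclin D1, at 76.6, 78.4 and 79.1 CPM in Empty and 122, 100.2 and 153 CPM in Empty-MMI (log2FC 0.68, SE 0.15, edgeR adjusted p = 0.0444).

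Genes of the extracellular matrix formed the other higher group. Of 25 tested matrix and fibroblast genes 7 rose and 0 fell (median log2FC 0.39, 23 above 0), and of 20 tested basement membrane genes 4 rose and 0 fell (median log2FC 0.38, 19 above 0), against 0.57% of all genes rising. Type VI collagen, which anchors cells in a microfibril net, rose in its 3 listed chains. Col6a3 (chromosome 1, 90766860 to 90844001) was at 27.3, 33.5 and 39.8 CPM in Empty and 62.1, 61.1 and 52.0 CPM in Empty-MMI (log2FC 0.80, SE 0.16, edgeR adjusted p = 0.0272). Col6a2 was at 166, 169 and 191 CPM in Empty and 312, 244 and 246 CPM in Empty-MMI (log2FC 0.61, SE 0.12, edgeR adjusted p = 0.0242), and Col6a1 stood at log2FC 0.49 (SE 0.10, edgeR adjusted p = 0.0289). The groups did not overlap for any of the 3, which were called on these same libraries, nor for 18.5% of all tested genes.

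Among the fibrillar genes, Col5a1, a minor chain that regulates fibril width, was at 24.1, 28.1 and 22.5 CPM in Empty and 39.7, 36.1 and 37.1 CPM in Empty-MMI (log2FC 0.59, SE 0.10, edgeR adjusted p = 0.0171). Col1a1, the main chain of type I collagen, was at 88.5, 82.1 and 93.2 CPM in Empty and 120.2, 131 and 121 CPM in Empty-MMI (log2FC 0.49, SE 0.10, edgeR adjusted p = 0.0273). Fibrillin 1 (Fbn1) and the proteoglycan biglycan (Bgn) rose by similar amounts (log2FC ± SE of 0.60 ± 0.13 and 0.50 ± 0.11, adjusted p = 0.0408 and 0.0339 in edgeR). In the basement membrane list the paired collagen IV chains Col4a1 and Col4a2, which sheathe follicles and vessels, rose (log2FC ± SE of 0.45 ± 0.10 and 0.50 ± 0.10, adjusted p = 0.0369 and 0.0334 in edgeR). The laminin chain Lama5 and collagen XVIII (Col18a1) did so too (log2FC ± SE of 0.58 ± 0.13 and 0.53 ± 0.10, adjusted p = 0.0444 and 0.0242 in edgeR).

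**Figure D4:**
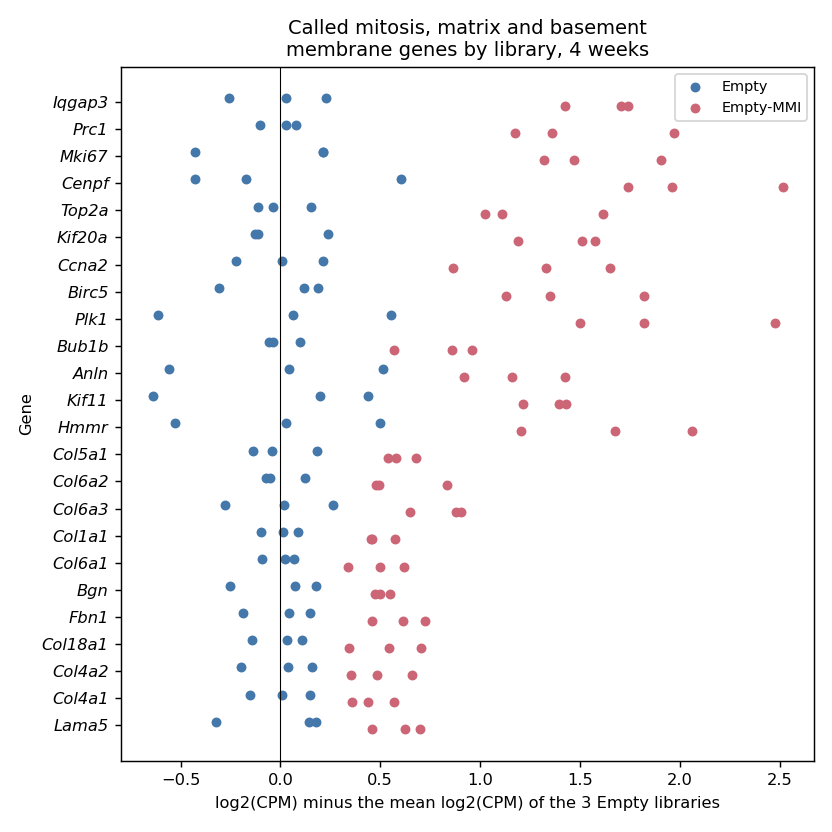
For the 13 mitosis, 7 matrix and 4 basement membrane genes that rose, each point is 1 library, placed by its log2 CPM minus the mean log2 CPM of the 3 Empty libraries, with Empty in blue and Empty-MMI in red. The colours do not overlap for any of these genes, which were called on the same libraries. The mitosis genes lie further to the right than the matrix genes.

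With the muscle score as a covariate the log2FC of the 7 matrix genes ran from 0.37 to 0.82 and that of the 4 basement membrane genes from 0.43 to 0.71, with no calls. With the muscle percentage the 7 ran from 0.41 to 0.76 and the 4 from 0.19 to 0.37, again with no calls, and the lowest was Lama5, at 0.58 without a covariate. By the linear rule the expected gap was at least 50% of the observed one for Col6a2 (104%), Bgn (82.0%) and Col18a1 (71.0%). It was less than that for the other 8. The high values rest on negative slopes, such as -78.2 CPM per percentage point of muscle for Col6a2. The matrix count was the more fragile one. It was 0 without Empty-MMI replicate 1 and without Empty-MMI replicate 3, 2 without Empty-MMI replicate 2 and without Empty replicate 1, and 3 without Empty replicate 2. The basement membrane count was 0 without Empty-MMI replicates 1 and 3 and without Empty replicate 1, 1 without Empty-MMI replicate 2 and 2 without Empty replicate 2. With only the 6 libraries of the comparison fitted, both counts were 0, and with DESeq2 they were 10 and 8. Cell type lists that hold other stromal cells had single calls, against 0.57% of all genes rising and 1.07% falling. In the endothelial list 1 of 18 genes rose, the TGF-beta co-receptor Eng (log2FC 0.40, SE 0.08, edgeR adjusted p = 0.0332). Pecam1, a marker of endothelial cells, stood at log2FC 0.02 (edgeR adjusted p = 0.951). Of 13 smooth muscle and pericyte genes Notch3 rose (log2FC 0.50, edgeR adjusted p = 0.0469) and Synpo2, a muscle-linked gene, fell (log2FC -1.49, edgeR adjusted p = 0.0242).

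Genes of thyroid hormone synthesis did not pass in either direction. Of 23 tested members of the list of hormone synthesis and iodide genes edgeR called 0, against 7 at an unadjusted p under 0.05 (15.1% of all genes), with a median log2FC of 0.21 and 17 of 23 above 0. The TSH receptor gene Tshr (chromosome 12, 91400993 to 91540509) was at 60.5, 87.2 and 94.3 CPM in Empty and 141, 159 and 94.5 CPM in Empty-MMI (log2FC 0.71, SE 0.19, edgeR adjusted p = 0.0859). The lowest Empty-MMI library was level with the highest Empty library. DESeq2 called Tshr, at an adjusted p of 0.00638.

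Peroxide for iodination is made by the dual oxidases with their maturation factors. Duox1 (chromosome 2, 122313010 to 122347972) was at 2.13, 1.64 and 3.28 CPM in Empty and 6.21, 3.77 and 6.26 CPM in Empty-MMI, without overlap (log2FC 1.21, SE 0.31, edgeR adjusted p = 0.0718, and 0.00965 in DESeq2). It passed in edgeR without Empty replicate 3 (adjusted p = 0.0479), but not without any of the other libraries of the comparison (edgeR adjusted p from 0.0648 to 0.225). Its partner Duoxa1 was at 2.30, 2.77 and 2.41 CPM in Empty and 4.54, 2.75 and 6.02 CPM in Empty-MMI (log2FC 0.83, SE 0.26, edgeR adjusted p = 0.13). Duox2 was at 36.2 to 58.0 CPM in Empty and 46.9 to 65.6 CPM in Empty-MMI (log2FC 0.22, edgeR adjusted p = 0.581), and Duoxa2 had a log2FC of -0.45 (SE 0.15), with an adjusted p of 0.151 in edgeR.

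Among the ion transporters, Slc26a7, an apical anion exchanger of follicular cells, was at 486, 598 and 676 CPM in Empty and 778, 822 and 780.4 CPM in Empty-MMI (log2FC 0.44, SE 0.12, edgeR adjusted p = 0.0869, and 0.00997 in DESeq2). Slc5a5, the sodium iodide symporter, was at 146, 302 and 165 CPM in Empty and 250.4, 248 and 208 CPM in Empty-MMI, with overlap (log2FC 0.21, SE 0.31, edgeR adjusted p = 0.825). Slc26a4, pendrin, was near the floor with 47 counts over Empty and 67 over Empty-MMI (log2FC 0.63, SE 0.41, edgeR adjusted p = 0.523). Iyd, which recovers iodide from iodotyrosines, stood at log2FC 0.18 (SE 0.10, edgeR adjusted p = 0.427). Tg itself stood at log2FC 0.17 (SE 0.18, edgeR adjusted p = 0.745). Of the deiodinases, Dio1 and Dio2 were at log2FC ± SE of 0.11 ± 0.10 and -0.03 ± 0.27 (adjusted p = 0.707 and 0.973 in edgeR), and Dio3, the inactivating enzyme, had 9 counts over Empty and 34 over Empty-MMI (log2FC 1.97, SE 0.55, edgeR adjusted p = 0.0959). The channels Ano1, Cftr and Kcnq1 and the transporters Slc3a2, Slc5a8, Slc7a5 and Slc7a8 lay between log2FC -0.32 for Slc3a2 and 0.35 for Slc5a8, with edgeR adjusted p from 0.235 to 0.981. Crym, a binding protein of thyroid hormone, had 50 counts over Empty and 17 over Empty-MMI (edgeR adjusted p = 0.48).

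The list of the TSH receptor and thyroid transcription factors had 0 of 11 called, against 7 at an unadjusted p under 0.05, and a median log2FC of -0.21. Foxe1, a forkhead factor of the thyroid lineage, was at 447, 478 and 486 CPM in Empty and 409, 326 and 377 CPM in Empty-MMI, without overlap (log2FC -0.34, SE 0.13, edgeR adjusted p = 0.221). Nkx2-1, Pax8 and Hhex, the other lineage factors, stood at log2FC ± SE of -0.29 ± 0.11, -0.21 ± 0.11 and -0.37 ± 0.13 (adjusted p = 0.225, 0.42 and 0.199 in edgeR). Glis3, which is needed for the response of follicular cells to TSH, was at 20.6, 28.4 and 26.4 CPM in Empty and 30.8, 33.0 and 39.5 CPM in Empty-MMI (log2FC 0.45, SE 0.15, edgeR adjusted p = 0.166). Thus Tshr and Glis3 lay on the higher side and the lineage factors on the lower side, none of them past the threshold. Creb3l1, a factor of secretory capacity, and the G protein subunits Gnaq and Gnas stood at log2FC 0.44, 0.13 and 0.10 (adjusted p = 0.378, 0.639 and 0.888 in edgeR). For 23 genes of the cyclic AMP response and 20 of the follicular epithelium edgeR called 0, against 2 and 7 at an unadjusted p under 0.05, with median log2FC of 0.07 and 0.20. Pde7b, a cyclic AMP phosphodiesterase, came nearest in the first list (log2FC 0.55, SE 0.13, edgeR adjusted p = 0.0553), and the keratin Krt7 in the second (log2FC 0.63, SE 0.16, edgeR adjusted p = 0.0593).

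**Figure D5:**
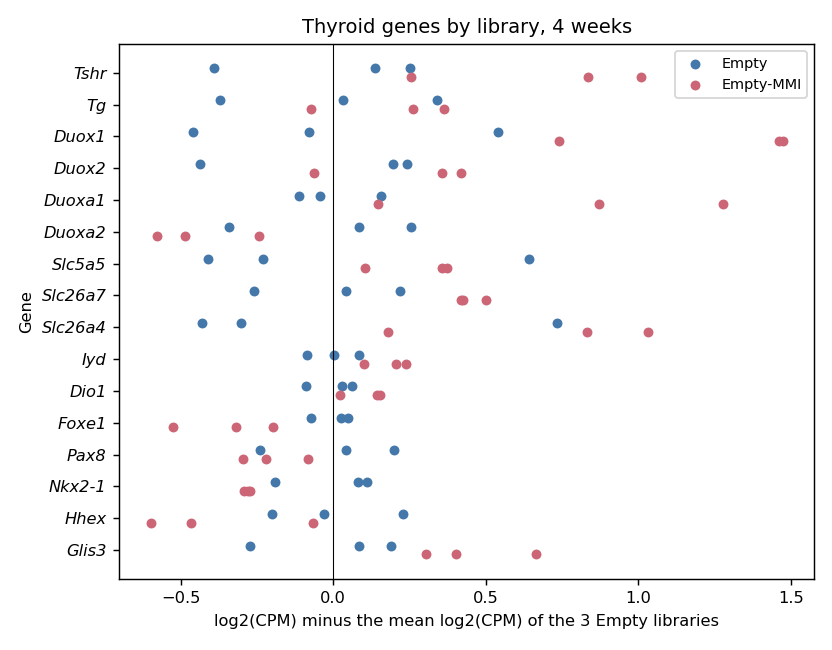
Each point is 1 library, placed by its log2 CPM minus the mean log2 CPM of the 3 Empty libraries, for genes of hormone synthesis and thyroid transcription factors, with Empty in blue and Empty-MMI in red. Red points lie to the right for Tshr, Duox1 and Slc26a7 and to the left for Foxe1 and Nkx2-1, and none of the genes drawn passed the test.

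Thyroid hormone acts on the gland as on other tissues through nuclear receptors. The receptor genes Thra and Thrb stood at log2FC ± SE of -0.25 ± 0.10 and -0.49 ± 0.20 (adjusted p = 0.244 and 0.26 in edgeR). Of 14 tested hormone-responsive genes 1 fell and 0 rose, against 1.07% of all genes falling. Rcan2, an inhibitor of calcineurin, was at 20.1, 11.2 and 15.2 CPM in Empty and 8.41, 9.12 and 5.66 CPM in Empty-MMI (log2FC -1.0, SE 0.22, edgeR adjusted p = 0.0403). Rcan2 is also expressed in muscle, and the gap expected from muscle content was 85.5% of the observed one. The part of muscle in the fall of Rcan2 was not tested. The hormone transporter Slc16a10 stood at log2FC -0.24 (edgeR adjusted p = 0.347).

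By the rule for named genes, the largest rises among genes with a mean of at least 5 CPM were those of Mki67 and Klf11. Klf11, a zinc finger factor induced by TGF-beta, was at 10.3, 8.32 and 5.91 CPM in Empty and 19.0, 22.7 and 26.6 CPM in Empty-MMI (log2FC 1.47, SE 0.19, edgeR adjusted p = 0.00588). It kept its call without each library in turn, and its gap ran against muscle content (expected -30.6% of the observed gap). Srxn1, sulfiredoxin, which restores oxidised peroxiredoxins, was at 30.9, 34.1 and 31.6 CPM in Empty and 72.8, 52.1 and 74.6 CPM in Empty-MMI (log2FC 1.05, SE 0.19, edgeR adjusted p = 0.0242). It was 1 of 2 genes that rose among 28 tested NRF2 and antioxidant genes, against 0.57% of all genes. The other was Gclc, of glutathione synthesis, at 21.3, 25.3 and 23.6 CPM in Empty and 30.9, 32.1 and 34.7 CPM in Empty-MMI (log2FC 0.48, SE 0.10, edgeR adjusted p = 0.0332), and the median of that list was 0.02.

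Other genes among the highest had varied roles. Ceacam19, of the carcinoembryonic antigen family, was at 7.19 to 8.20 CPM in Empty and 14.5 to 20.5 CPM in Empty-MMI (log2FC 1.11, SE 0.21, edgeR adjusted p = 0.0242). Adamts3, a protease that trims procollagens, and Adamtsl2, a protein of microfibrils, rose (log2FC ± SE of 1.01 ± 0.19 and 0.96 ± 0.16, adjusted p = 0.0238 and 0.014 in edgeR). The scaffold protein Sash1 was at 93.3, 108 and 116 CPM in Empty and 226, 264 and 143 CPM in Empty-MMI (log2FC 1.00, SE 0.17, edgeR adjusted p = 0.0171). Tekt1, a tektin of cilia, and Stmn1, which destabilises microtubules, rose as well (log2FC ± SE of 0.94 ± 0.20 and 0.82 ± 0.18, adjusted p = 0.0404 and 0.0435 in edgeR). So did Ppp1r10, a nuclear regulator of protein phosphatase 1, and the kinase Map3k13 (log2FC ± SE of 0.82 ± 0.13 and 0.70 ± 0.15, adjusted p = 0.0104 and 0.0355 in edgeR). By the linear rule the expected gap was 105% of the observed one for Tekt1, 66.4% for Stmn1, 58.4% for Adamts3 and 57.2% for Ppp1r10. These 4 values rest on negative slopes, and the genes are outside the 78 higher genes kept apart from muscle. With the muscle percentage as a covariate the log2FC of Tekt1 was 0.45 and that of Adamts3 was 0.57.

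Single members of other lists also rose or fell, against 0.57% of all genes rising and 1.07% falling. Pmaip1, the pro-apoptotic protein Noxa, was at 2.42, 2.44 and 1.71 CPM in Empty and 3.6, 4.3 and 7.68 CPM in Empty-MMI (log2FC 1.24, SE 0.26, edgeR adjusted p = 0.0349). It was the only one to rise of 21 tested p53 targets, in which Gadd45a, a stress sensor, fell. Esm1, endocan, rose among 20 angiogenic factors (log2FC 0.35, SE 0.08, edgeR adjusted p = 0.0408), in which Aplnr, the apelin receptor, fell (log2FC -0.51, SE 0.11, edgeR adjusted p = 0.0364), with a gap expected from muscle of 270.4% of the observed one. Glb1, lysosomal beta-galactosidase, rose as 1 of 25 lysosome genes (log2FC 0.42, SE 0.09, edgeR adjusted p = 0.0332), with an expected gap of 131%. Cyp1b1, a cytochrome of xenobiotic and retinoid metabolism, rose (log2FC 0.66, SE 0.13, edgeR adjusted p = 0.0287), and in the same list of 19 the retinal dehydrogenase Aldh1a1 fell (log2FC -1.28, SE 0.28, edgeR adjusted p = 0.0472). Its expected gap was 103%, and its log2FC was -0.40 with the muscle percentage as a covariate. Trp63, the p63 factor of basal epithelial cells, rose (log2FC 0.55, SE 0.13, edgeR adjusted p = 0.0478) in a list of 12 tested airway genes whose median log2FC was -0.53, with 3 above 0.

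Of the 12 lowest genes under the same rule, which leaves out muscle-linked genes beforehand, 9 had an expected gap of at least 50% of the observed one. Ramp1, a co-receptor of calcitonin gene-related peptide, was at 20.5, 4.00 and 7.30 CPM in Empty and 1.21, 1.47 and 0.853 CPM in Empty-MMI (log2FC -3.16, SE 0.52, edgeR adjusted p = 0.0238), with an expected gap of 80.0% of the observed one. Without Empty replicate 1, the library richest in muscle, its log2FC was -2.25 and it kept its call (edgeR adjusted p = 0.00525). It lost its call without each Empty-MMI library in turn (edgeR adjusted p from 0.0613 to 0.113). Tpm1, tropomyosin, Phkg1, the catalytic subunit of muscle phosphorylase kinase, and Adssl1, an adenylosuccinate synthase of muscle, fell as well (log2FC ± SE of -1.84 ± 0.33, -1.42 ± 0.19 and -1.81 ± 0.28, adjusted p = 0.0289, 0.00588 and 0.0204 in edgeR), with expected gaps of 96.9%, 116% and 72.8%. Camk2a, a calcium-dependent kinase, was at 14.5, 10.6 and 19.7 CPM in Empty and 2.26, 3.04 and 4.22 CPM in Empty-MMI (log2FC -2.23, SE 0.30, edgeR adjusted p = 0.00739), with an expected gap of 130%. Neurl1a, Phtf2, Ehbp1l1 and Art3 fell with expected gaps from 65.3% to 110%. For all of these, muscle transcript and the drug move together in the 6 libraries and cannot be told apart.

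The other 3 of the 12 had an expected gap under 50%. Tcea3, a transcription elongation factor, was at 35.9, 11.9 and 14.7 CPM in Empty and 4.68, 5.83 and 4.97 CPM in Empty-MMI (log2FC -2.01, SE 0.34, edgeR adjusted p = 0.0242), and its log2FC was -1.37 without Empty replicate 1. Dtna, dystrobrevin alpha, a protein of the dystrophin complex, was at 19.0, 6.66 and 7.43 CPM in Empty and 2.15, 3.50 and 2.93 CPM in Empty-MMI (log2FC -1.94, SE 0.36, edgeR adjusted p = 0.0273), and its log2FC was -1.30 without Empty replicate 1. Tcea3 and Dtna kept a call without Empty replicate 1 (adjusted p = 0.00286 and 0.0236 in edgeR) and lost it without each Empty-MMI library in turn. Sh3bgr was at 33.1, 17.2 and 23.4 CPM in Empty and 8.76, 8.88 and 7.97 CPM in Empty-MMI (log2FC -1.52, SE 0.20, edgeR adjusted p = 0.00588). In all 3, as in the muscle share itself, Empty replicate 1 was the highest library and Empty replicate 2 the lowest of the Empty group. Further lower genes with an expected gap under 50% had the same order, among them Rilpl1, Ubac1 and Jph1. The part of muscle in these falls was not tested.

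Some other lower genes did not show that order of the Empty libraries. Ppp1r3c, which targets protein phosphatase 1 to glycogen, was at 76.1, 81.3 and 106 CPM in Empty and 44.9, 49.2 and 48.5 CPM in Empty-MMI (log2FC -0.88, SE 0.12, edgeR adjusted p = 0.00588), with an expected gap of -30.7% of the observed one. Gadd45a was at 14.1, 15.2 and 16.6 CPM in Empty and 8.39, 8.77 and 9.24 CPM in Empty-MMI (log2FC -0.80, SE 0.13, edgeR adjusted p = 0.0129), with an expected gap of -34.4%. Sema6c, a semaphorin, was at 17.3, 12.6 and 17.8 CPM in Empty and 7.53, 8.28 and 8.53 CPM in Empty-MMI (log2FC -0.97, SE 0.14, edgeR adjusted p = 0.00739), with an expected gap of 10.3%. Sema6c and Ppp1r3c, like Sh3bgr, Dtna and Tcea3, are among 25 lower genes with a mean of at least 5 CPM, no overlap and an expected gap under 50%.

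Chac1, an enzyme that degrades glutathione and a target of ATF4, was at 3.41, 2.62 and 2.56 CPM in Empty and 0.323, 0.269 and 0.683 CPM in Empty-MMI (log2FC -2.75, SE 0.39, edgeR adjusted p = 0.00739), with an expected gap of 60.9%. It was 1 of 22 tested genes of the ATF4 response to fall, against 1.07% of all genes, and none rose. Igfbp5, which binds insulin-like growth factors, was at 348, 265 and 308 CPM in Empty and 214, 234 and 167 CPM in Empty-MMI (log2FC -0.58, SE 0.13, edgeR adjusted p = 0.0464). It was the only call among 26 growth factor genes, against 1.07% of all genes falling, and its expected gap was 101%. Of 26 tested glycolysis and hypoxia genes 2 fell, against 1.07% of all genes. These were Aldoa, aldolase A, and Slc16a3, a lactate exporter (log2FC ± SE of -1.07 ± 0.22 and -2.80 ± 0.54, adjusted p = 0.0349 and 0.0336 in edgeR). Both are strong in fast muscle, the expected gaps were 79.2% and 95.9%, and without Empty replicate 1 the log2FC of Slc16a3 was -1.89. Slc16a3 kept its call there (edgeR adjusted p = 0.0252) and lost it without each Empty-MMI library in turn. The part of muscle in these falls was not tested. For 30 nuclear genes of the respiratory chain edgeR called 0, against 6 at an unadjusted p under 0.05, with a median log2FC of -0.23.

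Adipocyte genes lay on the lower side, with 0 of 17 above 0 (median log2FC -0.45), and 1 of the 17 fell, against 1.07% of all genes. Pparg, the adipocyte nuclear receptor, was at 15.4, 14 and 10.5 CPM in Empty and 6.15, 7.22 and 8.41 CPM in Empty-MMI (log2FC -0.87, SE 0.17, edgeR adjusted p = 0.0273), with a gap expected from muscle of 99.0%. The mean log2 CPM of the list was 6.55, 6.14 and 5.81 in Empty and 5.62, 5.62 and 5.8 in Empty-MMI, and Adipoq, the adipocyte hormone adiponectin, stood at 113, 86.6 and 61.5 CPM in Empty and 65.4, 58.8 and 53.6 CPM in Empty-MMI. The part of fat tissue in the lower genes was not tested.

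Lists of other cells in or near the gland mostly gave no calls. For 17 C cell genes edgeR called 0, against 2 at an unadjusted p under 0.05 (median log2FC -0.22), and Calca, calcitonin, stood at log2FC -0.11 (SE 0.19, edgeR adjusted p = 0.857). For 9 parathyroid genes it called 0, against 0 at an unadjusted p under 0.05. For 17 macrophage genes it called 0, against 2 (median log2FC 0.15), and Csf1r, a receptor tyrosine kinase of macrophages, was at 45.9, 44.2 and 50.002 CPM in Empty and 52.1, 54.1 and 50.1 CPM in Empty-MMI (edgeR adjusted p = 0.476). It also called 0 of 27 interferon response genes, 0 of 15 MHC class I and peptide loading genes, 0 of 10 MHC class II genes, 0 of 25 ER chaperone genes, 0 of 24 sterol and fatty acid synthesis genes and 0 of 18 circadian clock genes. At an unadjusted p under 0.05 there were 5, 3, 0, 8, 2 and 1 in these lists. Medians for these 6 lists lay between -0.07 and 0.21 on the log2 scale. Of 12 Schwann cell, 10 cartilage, 6 erythroid, 4 cardiac and slow muscle and 3 immature thymocyte genes edgeR called 0, against 1, 2, 0, 2 and 1 at an unadjusted p under 0.05.

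The same drug was also given under the TSH vectors at 4 weeks, and the difference between its effects with and without TSH was tested on its own. By edgeR 0 of 17355 genes passed (0% called), against 1754 at an unadjusted p under 0.05, while DESeq2 called 163. The count was 1 without Empty-MMI replicate 3 and 10 without Empty replicate 2. Over the 34 tested mitosis genes the median log2FC was 0.29 in TSH-MMI against TSH and 1.13 without TSH, over the 25 matrix genes 0.04 and 0.39, and over the 20 basement membrane genes -0.08 and 0.38. The 13 mitosis genes that rose without TSH had log2FC from -0.05 to 0.48 with it, the 7 matrix genes from -0.38 to -0.00124 and the 4 basement membrane genes from -0.30 to 0.09. Those 24 genes were picked by the same Empty and Empty-MMI libraries that enter the difference, which favours a larger value without TSH, so these values are a description. None of their differences passed across the genome. For Iqgap3 the log2FC was 0.17 with TSH and 1.61 without. For Tshr it was 0.01 with TSH and 0.71 without (edgeR adjusted p = 0.423 for the difference), and for Klf11 it was 0.43 and 1.47 (edgeR adjusted p = 0.253).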

How the data were processed

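The libraries were made from thyroid RNA with a stranded poly(A) kit, per the labels' protocols. Tools listed in the submitters' processing notes, without their roles, are StringTie 2.1.3b, HISAT2 2.1.0, Trimmomatic 0.38 and FastQC 0.11.7, and the build is mm10. The deposited table holds the authors' read counts for 45777 genes, and the authors' FPKM values, which entered the limma alternatives only, per the file headers. The deposited TPM values were not used. The step that made whole-number counts and its use of strand are not stated in these sources, so overlapping genes and close copies are uncertain.

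Counts of the 12 libraries of 4 weeks were fitted in edgeR 4.0.16 (R 4.3.3) with filterByExpr, TMM scaling (factors 0.955 to 1.04 in the 6 libraries), robust dispersions and 1 spread for the 4 groups (biological coefficient of variation 0.184). The contrast was tested by the quasi-likelihood F test with Benjamini-Hochberg adjustment over 17355 genes at 0.05. The procedure was also run on simulated counts without a muscle difference, and that outcome is not given here. CPM values are TMM-normalised, and a score averages log2 CPM (prior count 2) over a list. Replicate pairs within the groups differed by chi-square values per degree of freedom between 33.6 and 149.5, above sampling noise, so each library counts once. No library was left out. Floors cover counting error only, whereas each SE comes from the fit and includes the spread between libraries.

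The comparison, the 38 lists (737 of 738 symbols in the table) and the tests were chosen with earlier results of these data known. Named genes were the tested genes of both thyroid lists, the 12 highest and 12 lowest called genes with a mean of at least 5 CPM and no overlap, without muscle, predicted and immunoglobulin genes, and, from each list described, up to 4 genes by smallest p. Fewer are printed, and a few thyroid genes are not reported here. Iqgap3 to Hmmr, the other called members of lists, Sema6c, Ppp1r3c and the muscle genes Acta1 and Ckm were named after their values were seen. Positions and promoters are from RefSeq on GRCm38.p6. Alternatives were DESeq2 1.42.0, limma 3.58.1 on log2(FPKM + 1) and log2(FPKM + 0.1), RLE scaling, no filter, only the compared groups, the replicate block, muscle covariates, removal of muscle genes, or of Tg with mitochondrial and ribosomal RNA genes, before scaling, and leaving out each library.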

Additional observations from a re-analysis of the deposited data

How the results depend on the processing

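The count of 285 called genes was 776 with DESeq2, 73 with only the compared groups fitted, 167 with muscle genes removed before scaling and 0 with either muscle covariate, and it ran from 20 to 326 when 1 library was left out. With limma on log2(FPKM + 1) or log2(FPKM + 0.1) it was 258 or 287, of which 21 or 34 were higher, against 99 of 285 in edgeR and 358 of 776 in DESeq2. Apart from muscle the 213 calls were 623 with DESeq2, 133 with limma on log2(FPKM + 1), 33 with only the compared groups, 0 with either muscle covariate, 119 with the linear muscle rule chosen after the data were seen, and 18 to 231 with 1 library left out. Requiring r of 0.5 or 0.9 for muscle-linked genes gave 195 or 270. The difference of the drug's effects with and without TSH had 163 calls with DESeq2, 2 and 5 with limma, 0 to 10 with 1 library left out, and 0 at the other settings. The numbers of the replicates did not pair the libraries: deviations of same-numbered libraries correlated at -0.0843, 0.0417 and -0.0894. With the replicate block the calls were 101, of which 97 were among the 285, and 77 apart from muscle. The muscle share was 0.782% in Empty and 0.0153% in Empty-MMI over the 10 marker genes only.

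The mitosis calls were 13 in edgeR, 20 with DESeq2, 3 and 8 with limma, 5 with only the compared groups and 9 with the replicate block. Of 74 called genes named above or below, 10 kept a call without each library in turn, 5 higher and 5 lower, and 0 kept one with a muscle covariate. DESeq2, RLE scaling and scaling without Tg, mitochondrial and ribosomal RNA genes ended none of the 74 calls, and limma on log2(FPKM + 1) ended 41. With the muscle percentage as a covariate Phtf2 stood at log2FC 0.0483 and Aldoa at 0.0366, and with the muscle score Myf6 stood at 1.10, each reversed in sign, and the cause was not tested. Myf6 is itself a member of the list that the score averages, so its fit is adjusted for a covariate that includes it. With 53 counts in Plk1 over the Empty libraries, depth limits the precision of the mitosis genes.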

Other observations

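Some immunoglobulin transcripts, which are made by B cells and plasma cells, were lower in Empty-MMI than in Empty. These genes were named after their values were seen: of 4 tested immunoglobulin segments and constant regions 3 fell (Igkc, Ighm and Igkv15-103) and 0 rose, against 1.07% of all genes falling. Igkv15-103, a kappa variable segment, had 95, 94 and 78 counts in Empty and 0 in each Empty-MMI library, and Iglv2, a lambda segment that did not pass, had 92, 26 and 2 counts in Empty and 0, 14 and 0 in Empty-MMI. Igkc, the kappa light chain constant region, was at 8.33, 5.14 and 12.2 CPM in Empty and 0.0806, 0.290 and 0.293 CPM in Empty-MMI (log2FC -5.22, SE 0.58, edgeR adjusted p = 0.00588), with 1151 counts against 29. Ighm, the constant region of IgM, was at 21.9, 16.6 and 23.4 CPM in Empty and 8.92, 10.5 and 7.97 CPM in Empty-MMI (log2FC -1.17, SE 0.17, edgeR adjusted p = 0.00851). Jchain, which joins IgM and IgA into polymers, was at 3.80, 1.21 and 3.53 CPM in Empty and 0, 0.269 and 0.0731 CPM in Empty-MMI (log2FC -4.51, SE 0.80, edgeR adjusted p = 0.0272). In Igkc and Ighm every Empty library was above every Empty-MMI library, and the gap expected from muscle content was 9.79% and 43.6% of the observed one. Over the TSH and TSH-MMI libraries of 4 weeks, Igkc had 75 and 40 counts, Ighm 2126 and 1776, and Igkv15-103 0 and 0. For Igkc and Igkv15-103 the Empty group thus stood above all the other groups, including TSH, which had no drug.

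Jchain was the only gene of 16 tested T and B lymphocyte genes to pass, against 1.07% of all genes falling. Its gap expected from muscle was -0.652% of the observed one. Jchain passed without Empty-MMI replicate 2 (log2FC -6.11, edgeR adjusted p = 0.0223) and without Empty replicate 2 (edgeR adjusted p = 0.0109). It lost its call without any of the other libraries of the comparison (edgeR adjusted p from 0.0519 to 0.123). Igkc kept its call without each library in turn. Bhlha15, a factor of secretory cells such as plasma cells, was at 17.3, 23.6 and 40.6 CPM in Empty and 13.4, 10.8 and 12.02 CPM in Empty-MMI (log2FC -1.17, SE 0.24, edgeR adjusted p = 0.0349). Irf4, another factor of plasma cells, went the other way. It was called higher in Empty-MMI, with a gap of Empty minus Empty-MMI of -3.05 CPM. In TSH-MMI against TSH the log2FC was -0.85 for Igkc and -0.21 for Ighm, and the difference of the effects did not pass (adjusted p = 0.202 and 0.248 in edgeR). Jchain had 0 counts in each TSH library and 0, 3 and 3 in TSH-MMI, too few for a fold, and its difference did not pass either (edgeR adjusted p = 0.295).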
